A study of Apostichopus japonicus with 12 samples.

Results

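The 133 features described here are those whose transcript level in sea cucumber (Apostichopus japonicus) respiratory tree lay below every other library in the 3 libraries from animals under heat and low oxygen together, while neither stress alone moved their mean far. They were chosen by rule from the 59494 features of the table, on y = log2(FPKM + 0.5), where FPKM is the fragment count of a feature corrected for its length and for the sequencing depth of the library. The highest of the 3 values under both stresses had to lie under the lowest of the other 9, and the mean under both stresses at least 1.5 below the control mean. The thermal and hypoxic means each had to differ from the control mean by less than 1, and the control mean had to be at least 2 FPKM. The rule used all 12 libraries, so the levels of these features are given as a description of what was chosen, and no test of them is independent of the choice.

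The data are 12 libraries of RNA depleted of ribosomal RNA, 3 from each of 4 treatments. The control animals carried the treatment label of normal control, the thermal group was held at 26 °C, the hypoxic group at 2 mg/L dissolved oxygen, and the last group at 26 °C and 2 mg/L together. The sources used here give neither temperature nor oxygen for the controls, no oxygen level for the thermal group and no temperature for the hypoxic group. Duration of exposure, age and strain are not stated either. Nothing in the labels ties replicates to different animals, so a p-value here reflects variation between libraries only, which may be technical.

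The respiratory tree is a pair of branched, thin-walled sacs that open into the cloaca. Sea water is pumped in and out of it, and oxygen passes across its wall into the coelomic fluid, so the organ meets both a change in water temperature and a change in dissolved oxygen directly. Warm water holds less oxygen and raises the oxygen demand of an animal that takes its temperature from the water, and the stresses often occur together in summer. Animals under such stress are known to raise protein chaperones and to cut back costly processes such as growth and protein synthesis. Which processes the features described here belong to cannot be said, because 0 of the identifiers of the table matched the RefSeq gene table used here. Features with AJAP and MSTRG identifiers are therefore given by identifier only, without gene name, coordinates or sequence, and the tissue could not be checked against marker genes.

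Library totals recovered from the FPKM values ran from 20387909 to 28428042 reads, and those of the group under both stresses, 21037786 to 22024922, lay within that range. The FPKM values of a library summed to between 750762 and 789406 under both stresses and between 778643 and 865148 in the other libraries. Over the 46763 features that reached 0.5 FPKM in 3 or more libraries (the features tested), the median log2 change of both stresses against control was -0.02. 

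Of the 27075 features with a control mean of at least 2 FPKM, 492 lay lower in the 3 libraries under both stresses than in the other 9. Over the features tested, with no condition on level, the share was 1.31%. Among them, 239 also had a mean at least 1.5 below control. Of these, 163 kept the thermal mean within 1 of control, and 133 the hypoxic mean as well. The 133 features comprised 80 AJAP and 53 MSTRG features, so that 60.2% were AJAP, against 62.9% of the 26969 tested features at the same control level. All 133 passed the filter on low values.

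The members were mostly of middling abundance. Control means ran from 2.01 to 5111 FPKM with a median of 6.48, where all features at the same minimum had a median of 7.45. The median of the members' group means was 4.56 FPKM in the thermal group, 4.66 FPKM in the hypoxic group and 1.33 FPKM under both stresses. A control mean under 5 FPKM was found at 49 members, while 37 had 5 to 10, 40 had 10 to 100, and 7 had more. A member's mean under both stresses was between 0% and 39.2% of its control mean, with a median of 19.6%. In bulk tissue, fewer cells of a type and less RNA per cell cannot be told apart, which applies to every level given here.

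Summed over the members other than MSTRG.10643, which held more than the other members together in every library but replicate 2 under both stresses, the control libraries held 2380, 2397 and 2133 FPKM. The thermal libraries held 1829, 1292 and 2056 FPKM, and the hypoxic libraries 1827, 1837 and 1786 FPKM. Under both stresses the sum was 501, 541 and 617 FPKM. The rule fixes that the last 3 are lowest, but not that thermal replicate 2 stands below the other 5 libraries of the single stresses, nor that the 3 hypoxic libraries are nearly level.

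**Figure D1:**
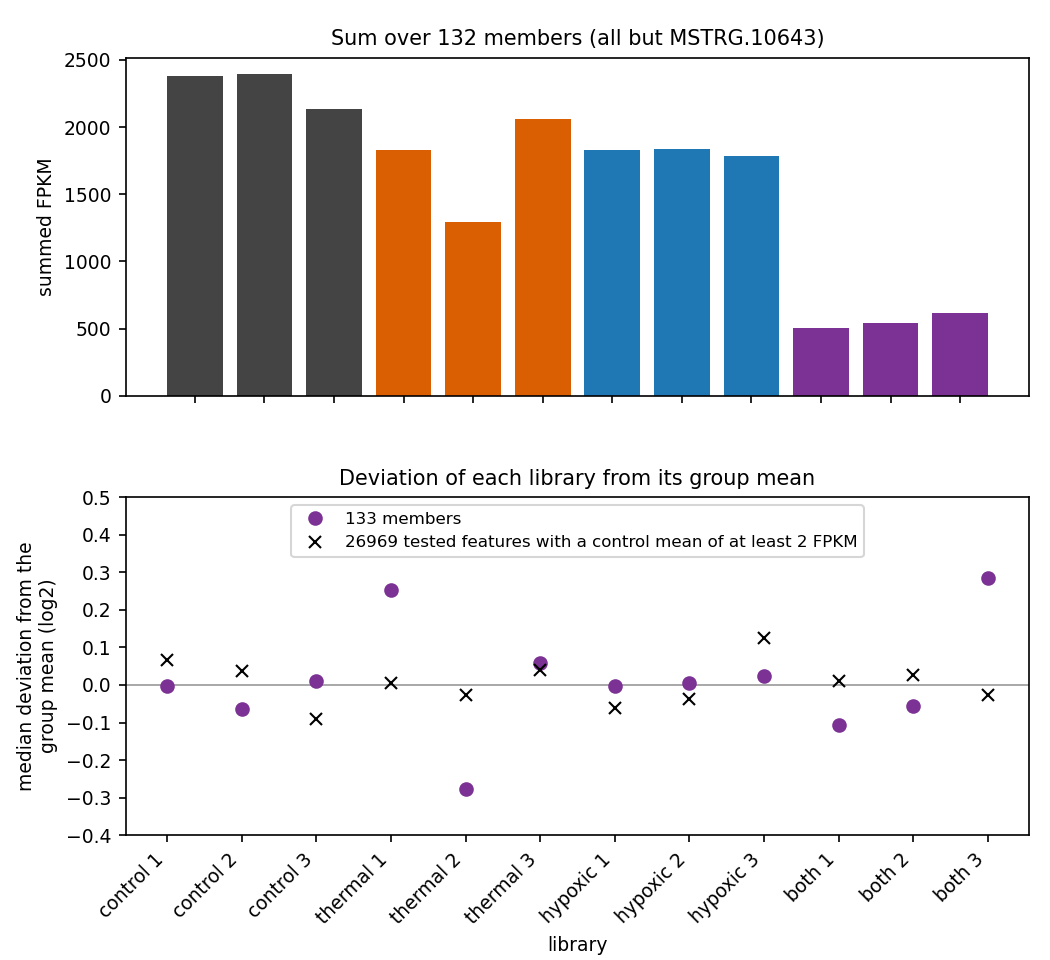
The upper panel shows the summed FPKM of 132 members (all but MSTRG.10643) in each of the 12 libraries, coloured by treatment. The lower panel shows, for each library, the median deviation from its group mean on the log2 scale over the 133 members (dots) and over 26969 tested features with a control mean of at least 2 FPKM (crosses). Thermal replicate 2 was at -0.28 and replicate 3 under both stresses at 0.28 over the members, where the crosses lie near 0.

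How the low level under both stresses relates to each stress alone differed from member to member. The median log2 change over the members was -0.46 in the thermal group and -0.43 in the hypoxic group, and -1.97 under both stresses. Over all tested features the same medians were 0.06, -0.08 and -0.02. The 3 comparisons subtract the same control libraries, and the rule used those libraries. The thermal mean lay below control at 110 of the 133 members and the hypoxic mean at 113, all within the limit of 1 that the rule sets. Thermal and hypoxic means both lay below control at 72.2% of members. Among the 20117 tested features at the same control level with single changes under 1, the share was 33.6%. The rule used these values, so nothing is read from that difference.

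The departure from a plain sum was taken as the change under both stresses minus the sum of the thermal and the hypoxic change, on the log2 scale. It had a median of -1.06 over the members and ran from -3.38 to 0.17, against a median of -0.01 over all tested features. At 22 members it was between -0.5 and 0, and at 2 it was above 0, so that the single changes summed to nearly as much as the change under both stresses or more. At 37 members it was between -1 and -0.5, at 49 between -2 and -1, and at 23 below -2. At 60 members the sum of the single changes made up at least 0.5 of the change under both stresses. A set defined by small single changes and a low level under both stresses thus held members near a plain sum as well as members far from one.

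**Figure D2:**
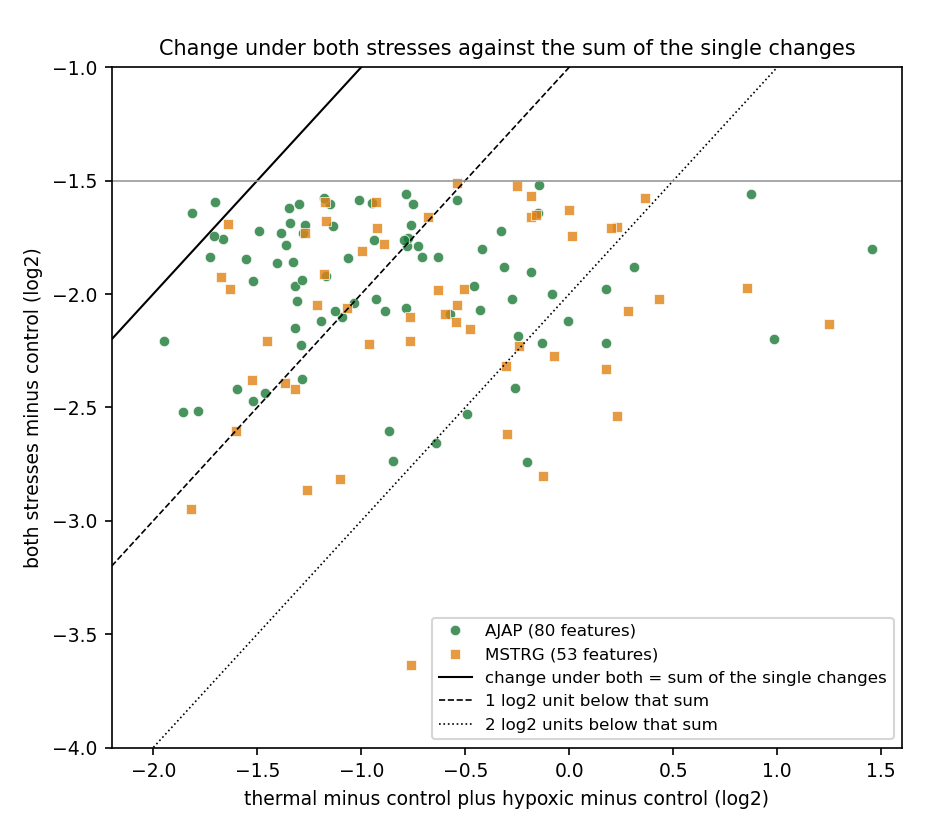
Each point is 1 member, 80 AJAP features as circles and 53 MSTRG features as squares. The horizontal axis is the thermal change plus the hypoxic change against control and the vertical axis the change under both stresses against control, both in log2 units, with the rule's limit of -1.5 as a grey line. Points on the solid line equal the plain sum; 2 members lie above it, and 23 lie more than 2 log2 units below it, under the dotted line.

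For description the members were grouped by whether a single-stress mean lay at least 0.5 log2 units from control, a limit chosen after the values were seen. At 39 members both single-stress means lay within 0.5 of control. Their median level was 4.43 FPKM in the control, 4.17 in the thermal, 3.85 in the hypoxic group and 0.881 FPKM under both stresses, and their median departure from the sum was -1.57. At 35 members both single-stress means were at least 0.5 lower. These had median levels of 7.44 FPKM in the control, 4.27 in the thermal, 4.26 in the hypoxic group and 1.55 FPKM under both stresses, a stepwise pattern with a median departure of -0.45.

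At 28 members the thermal mean alone was at least 0.5 lower, with median levels of 7.69, 4.55, 6.90 and 1.61 FPKM in the control, thermal, hypoxic and combined groups. At 20 members it was the hypoxic mean alone, with 7.98, 6.47, 4.58 and 1.28 FPKM in the same order. The remaining 11 members had a single-stress mean at least 0.5 higher than control. Their median levels were 8.16 FPKM in the control, 9.09 in the thermal and 13.5 in the hypoxic group, and 1.54 FPKM under both stresses. Their median departure from the sum was -2.51. The departure subtracts the single-stress changes by which the members were grouped, so how it differs between these 5 kinds follows in part from the grouping.

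**Figure D3:**
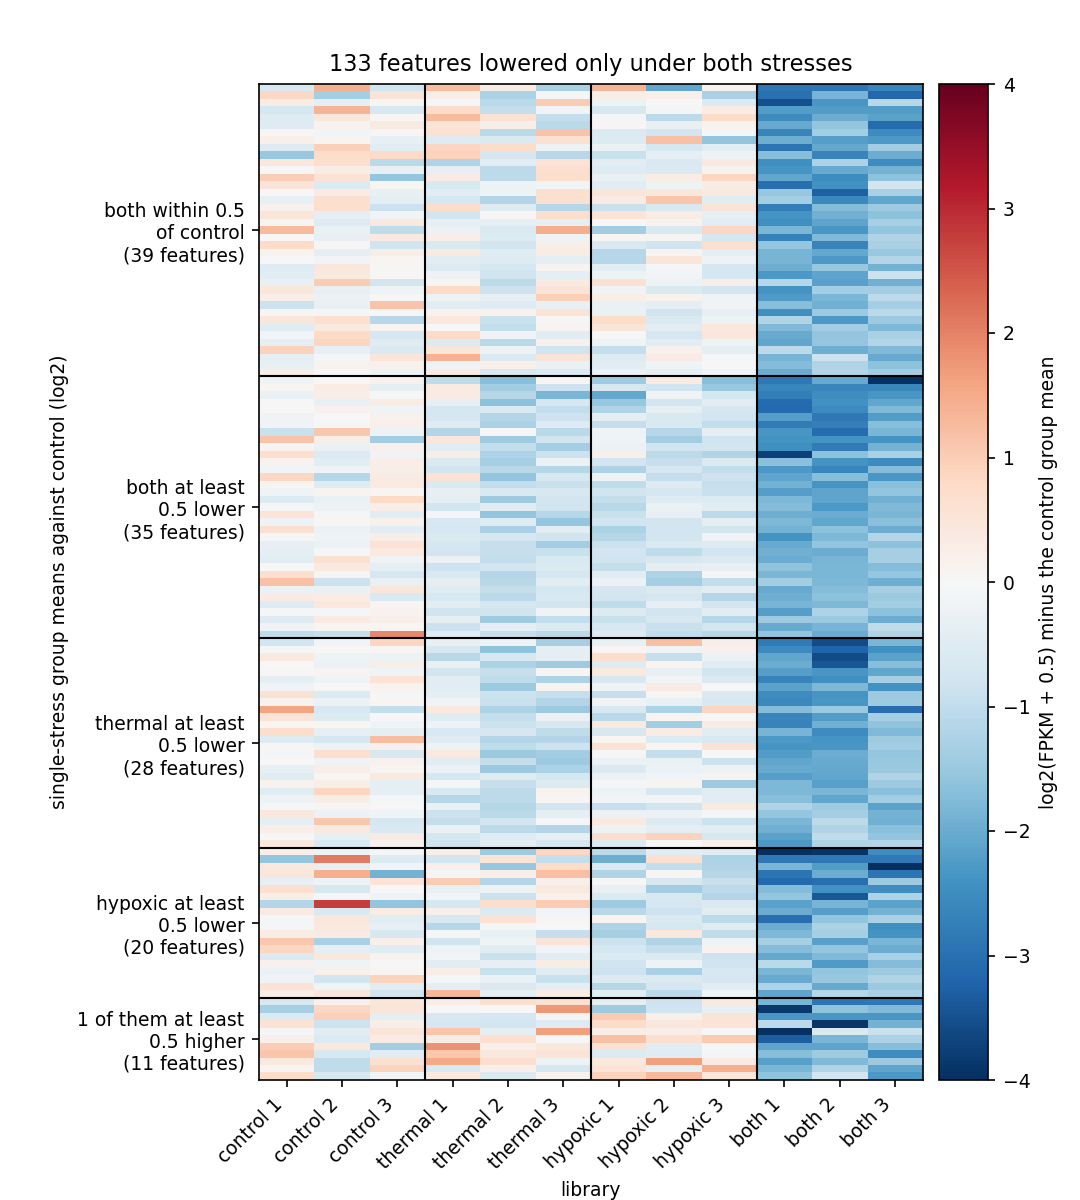
Each row is 1 of the 133 members and each column 1 of the 12 libraries, with colour giving log2(FPKM + 0.5) minus the mean of the 3 control libraries (blue lower, red higher). Rows are grouped by the single-stress means into 39, 35, 28, 20 and 11 features. The 3 columns under both stresses are the bluest in every row by the rule. The thermal and hypoxic columns are mostly pale blue in the second block, where both single-stress means were at least 0.5 lower, and mixed in the last, where at least 1 of them was 0.5 higher.

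Members of high abundance come first. MSTRG.10643, with a recovered length of 291 bases, held 7087, 2675 and 5571 FPKM in the controls, 2947, 2763 and 3318 in the thermal, 7887, 6484 and 6972 in the hypoxic, and 2298, 319 and 1274 FPKM under both stresses. Its hypoxic libraries were high and level, its thermal libraries lay in the lower part of the control range, and the 3 libraries under both stresses were far apart, with replicate 2 lowest. Control libraries averaged 5111 ± 2242 FPKM and combined libraries 1297 ± 989 FPKM (mean ± SD, n = 3, here and below), which is -2.27 in log2 units. The change was -1.47 without replicate 2 under both stresses and -2.89 without replicate 1.

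AJAP24366 held 176, 455 and 191 FPKM in the control, 163, 120 and 273 in the thermal, 214, 158 and 184 in the hypoxic group, and 70.5, 70.3 and 78.2 FPKM under both stresses. The libraries under both stresses were alike, while control replicate 2 stood far above the other two controls, and the log2 change was -1.76. AJAP20042 held 299, 192 and 198 FPKM in the control, 125, 106 and 171 in the thermal, 193, 190 and 217 in the hypoxic group, and 77.0, 87.8 and 60.0 FPKM under both stresses. Here the thermal libraries all lay below the control and hypoxic ones, and the combined libraries below those, with a log2 change of -1.60.

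AJAP13526 varied little within its control and hypoxic groups. It held 146, 158 and 162 FPKM in the control, 98.5, 50.4 and 121 in the thermal, 163, 139 and 174 in the hypoxic group, and 26.3, 16.3 and 28.0 FPKM under both stresses. Control and hypoxic libraries overlapped, at means of 155 ± 8.25 and 159 ± 18.3 FPKM, the thermal libraries lay lower, and the combined libraries averaged 23.5 ± 6.32 FPKM. The log2 change was -2.74 against control, -2.76 against the hypoxic group and -1.86 against the thermal group, and the departure from the sum was -1.89.

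The other abundant members were more scattered. AJAP28098 held 145, 146 and 74.9 FPKM in the control, 110, 95.7 and 61.9 in the thermal, 46.2, 157 and 57.4 in the hypoxic group, and 33.4, 46.2 and 21.6 FPKM under both stresses. Its highest combined library and its lowest hypoxic library were equal to 3 digits, so it met the condition of no overlap by the smallest margin in the set. AJAP08413 held 78.5, 184 and 72.2 FPKM in the control and 23.7, 34.1 and 44.9 FPKM under both stresses, with single-stress means of 77.6 ± 34.7 and 84.3 ± 7.50 FPKM. AJAP29844, named because it was the remaining member above 100 FPKM in the control, had means of 111 ± 14.0, 102 ± 29.4, 73.8 ± 18.5 and 35.7 ± 14.9 FPKM in the control, thermal, hypoxic and combined groups.

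The lowest changes against control were found mostly at MSTRG features of moderate level. MSTRG.79607 held 13.2, 9.32 and 10.2 FPKM in the control, 12.9, 3.67 and 19.5 in the thermal, 4.997, 7.66 and 7.98 in the hypoxic group, and 0, 0.240 and 1.52 FPKM under both stresses. These values rest on 544 reads in the control libraries and 29 under both stresses, and the log2 change of -3.64 was the lowest of the set. Thermal replicate 2 was again far below the other two thermal libraries.

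MSTRG.139674 had control values of 6.49, 7.12 and 8.27 FPKM and combined values of 0.559, 1.42 and 0 FPKM. Its thermal mean was 4.27 ± 2.97 and its hypoxic mean 4.51 ± 4.12 FPKM, so both single stresses were low and scattered, and the log2 change under both was -2.95. MSTRG.9206 held 13.6, 7.84 and 9.17 FPKM in the control, 11.6, 3.18 and 17.0 in the thermal, 6.48, 4.77 and 4.06 in the hypoxic group, and 2.41, 1.73 and 0 FPKM under both stresses. Every hypoxic library of it lay below every control library, and the log2 change under both stresses was -2.82, or -2.03 without replicate 3 under both stresses.

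AJAP12469 held 9.80, 15.9 and 31.1 FPKM in the control, 13.6, 15.1 and 6.51 in the thermal, 13.6, 39.9 and 20.5 in the hypoxic group, and 1.95, 0.973 and 4.43 FPKM under both stresses. Its control and single-stress libraries overlapped widely, and its log2 change was -2.74. MSTRG.104929 held 1.92, 9.39 and 1.63 FPKM in the control, 8.15, 4.04 and 1.02 in the thermal and 9.02, 0.372 and 3.56 in the hypoxic group. Under both stresses only 1 read was recovered over the 3 libraries, in replicate 3, where the control libraries held 122. The SD was as large as the mean in its control and hypoxic groups, at 4.40 and 4.38 FPKM.

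In 5 members no read was recovered in any library under both stresses, and all 5 were MSTRG features of low control level. MSTRG.104401 held 1.18, 4.32 and 1.47 FPKM in the control, 1.13, 1.09 and 2.13 in the thermal and 4.71, 2.38 and 3.09 in the hypoxic group. With 143 control reads it was at least 47.0-fold lower under both stresses, against a floor of 3 reads over the 3 libraries that covers counting error only. It had the widest gap of the set, 1.67 log2 units between its lowest other library and the combined libraries.

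MSTRG.110280 held 0.950, 5.46 and 0.995 FPKM in the control and from 0.711 to 3.41 FPKM in the single-stress libraries, and was at least 46.4-fold lower by the same floor. MSTRG.27349 held 0.756, 14.9 and 2.01 FPKM in the control, so its mean rested mostly on control replicate 2, and was at least 36.2-fold lower. MSTRG.49880, at 5.32, 2.59 and 0.505 FPKM in the control, was at least 20.4-fold lower. MSTRG.22939, at 2.70, 3.24 and 1.85 FPKM, was at least 16.8-fold lower and had single-stress means of 1.75 ± 1.43 and 1.09 ± 0.461 FPKM. Another 18 members had 0 reads in 1 or 2 of the 3 combined libraries, and none had 0 reads in any of the other 9.

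MSTRG.79607, with the lowest change, was also among the 7 members with the widest separation. The gap between the lowest of the other 9 libraries and the highest of the 3 combined libraries had a median of 0.32 log2 units. It was under 0.1 at 28 members, between 0.1 and 0.5 at 62, between 0.5 and 1 at 36, and at least 1 at 7. MSTRG.89019 was one of these 7, with 12.3, 12.9 and 10.9 FPKM in the control, 6.83, 6.07 and 12.3 in the thermal, 15.8, 9.74 and 7.02 in the hypoxic group, and 2.19, 1.98 and 2.45 FPKM under both stresses. Its combined libraries were nearly equal, at 2.21 ± 0.236 FPKM.

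AJAP19892, another of the 7, varied little within groups. It held 32.6, 34.9 and 39.8 FPKM in the control, 22.4, 15.4 and 19.8 in the thermal, 27.8, 23.4 and 20.8 in the hypoxic group, and 7.32, 4.49 and 7.11 FPKM under both stresses. Both single-stress groups lay wholly between the control and the combined libraries, a stepwise order with log2 changes of -0.89, -0.57 and -2.44. AJAP03297 instead held 33.9, 28.2 and 36.5 FPKM in the control, 28.1, 16.0 and 18.2 in the thermal, 49.0, 34.5 and 49.0 in the hypoxic group, and 6.02, 6.04 and 12.3 FPKM under both stresses. Hypoxic replicates 1 and 3 lay above every control library, and the group averaged 44.2 ± 8.35 FPKM, where the combined group averaged 8.12 ± 3.61 FPKM.

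**Figure D4:**
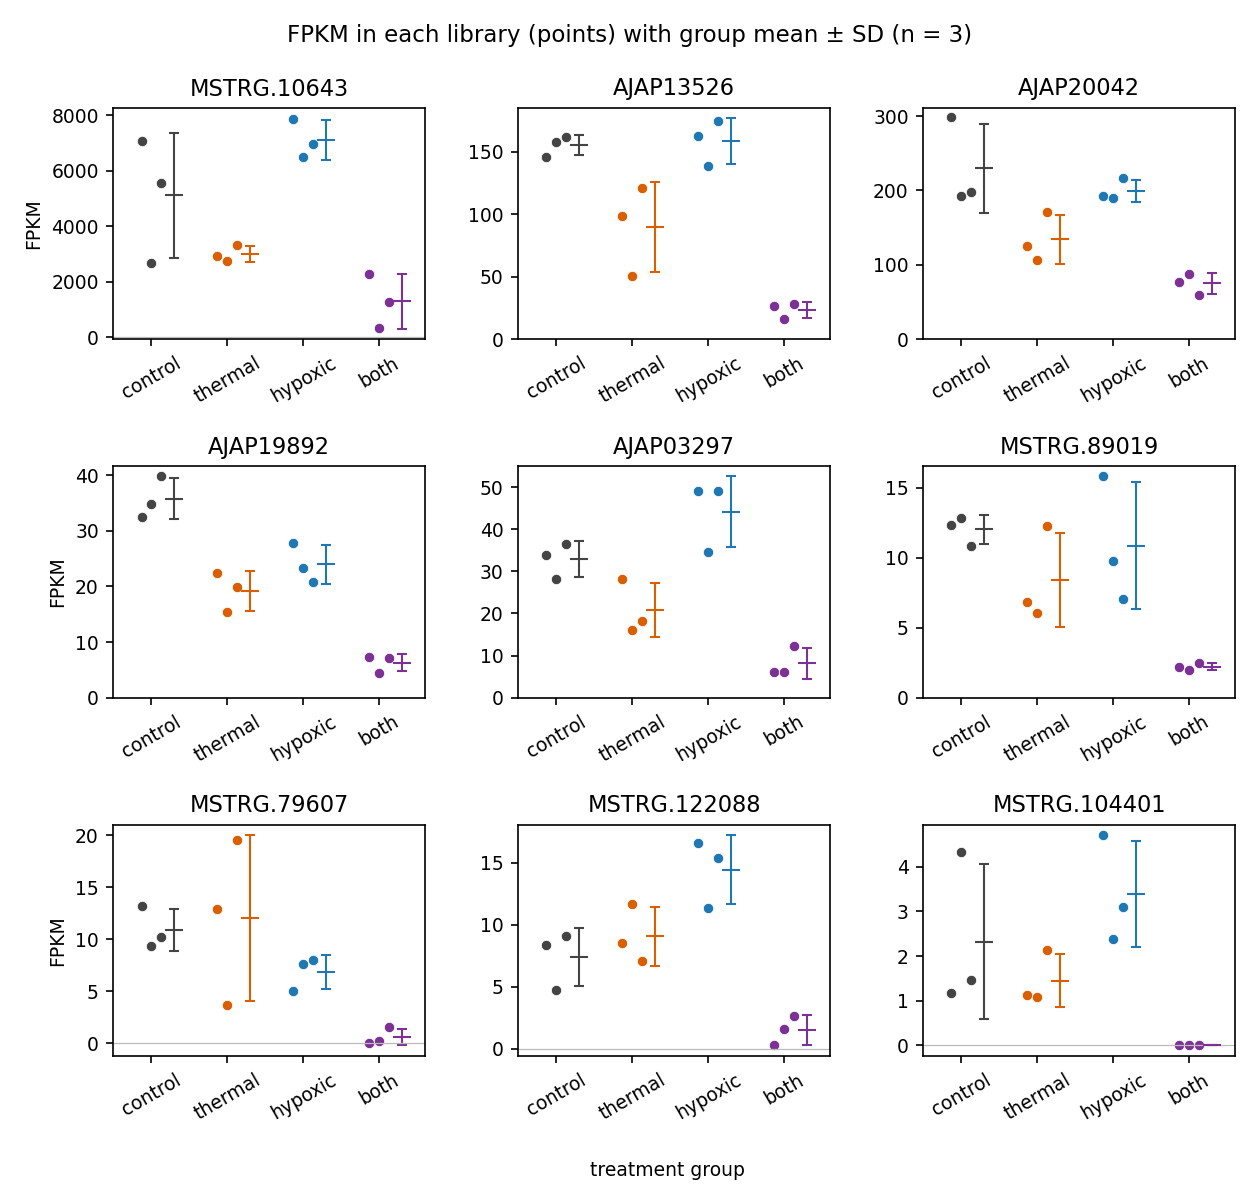
FPKM in each of the 12 libraries (points, linear axes that differ between panels) for 9 named members, with the group mean and SD (n = 3) beside the points. The 3 combined libraries are the lowest in each panel; the thermal and hypoxic groups lie near control in some panels, between control and combined in AJAP19892, and the hypoxic group lies above control in MSTRG.122088.

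The 4 members with the lowest departures from the sum were MSTRG.122088, AJAP20203, AJAP22697 and MSTRG.79607. On the log2 scale the first 3 had a higher mean than control under a single stress, while MSTRG.79607, described above, had none and stood at -2.88. In FPKM its thermal replicate 3 nonetheless lay above every control library. MSTRG.122088 held 8.39, 4.73 and 9.09 FPKM in the control, 8.50, 11.7 and 7.06 in the thermal, 16.6, 11.3 and 15.4 in the hypoxic group, and 0.276, 1.64 and 2.69 FPKM under both stresses. Its hypoxic libraries all lay above the control libraries and its combined libraries all below the thermal ones, with a departure of -3.38 (SE 0.67). It rested on 1103 control reads and 225 combined reads.

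AJAP20203 held 27.5, 9.89 and 32.1 FPKM in the control, 59.6, 33.5 and 17.8 in the thermal, 27.7, 65.3 and 26.4 in the hypoxic group, and 4.21, 5.70 and 7.19 FPKM under both stresses. Thermal replicate 1 and hypoxic replicate 2 stood above its other libraries, and its departure was -3.26 (SE 0.73). AJAP22697 had a departure of -3.18 (SE 1.32), with 33.2, 24.7 and 47.7 FPKM in the control and 74.2, 26.2 and 106 in the thermal group. Under both stresses it held 0.478, 22.7 and 18.3 FPKM, so its mean on the log2 scale rested on replicate 1. Against control it differed by -2.197 in log2 units, but leaving out that library gave -0.73, and leaving out combined replicate 2 or 3 gave -3.01 or -2.86. MSTRG.84023 held 2.21, 4.26 and 5.17 FPKM in the control, 4.55, 6.08 and 5.83 in the thermal, 2.68, 1.84 and 4.997 in the hypoxic group, and 0.651, 0.0691 and 0.0700 FPKM under both stresses, with a departure of -2.77 (SE 0.66).

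Values near the thresholds show how sharp the choice was. MSTRG.80577 was the nearest inside the limit on the change under both stresses, at -1.5096, and AJAP25003 the nearest outside, at -1.4998. AJAP14005, the nearest inside the limit on the thermal change, had a thermal change of 0.9994 in size, downward, a hypoxic change of -0.66 and a combined change of -1.76, a departure from the sum of -0.09. MSTRG.100220 lay just outside the same limit, at 1.0002 downward. On the hypoxic change, MSTRG.22939 was nearest inside at -0.98 and MSTRG.54156 nearest outside at -1.02. For the control mean, MSTRG.51802 was nearest inside at 2.01 FPKM and MSTRG.39277 nearest outside at 1.90 FPKM. AJAP28098 met the condition of no overlap by 0.0005 log2 units, and AJAP12376 missed it with 0 FPKM in thermal replicate 3 as well as in the combined libraries. Features that missed 1 condition alone numbered 298 for the overlap, 252 for the combined change, 52 for the thermal change, 30 for the hypoxic change and 25 for the control mean.

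AJAP and MSTRG members differed in level and spread. The median control mean was 8.23 FPKM for the AJAP and 4.32 FPKM for the MSTRG members, and the median SD within groups was 0.50 and 0.65 log2 units. The median combined change was -1.88 for AJAP and -2.05 for MSTRG members, and the median departure from the sum -0.96 and -1.44. The median thermal change was -0.58 for AJAP and -0.31 for MSTRG members. These values were not taken over all tested features of each kind, so whether the differences are particular to the members was not tested. Recovered lengths had a median of 1042 bases for AJAP and 728 bases for MSTRG members, beside 972 and 853 bases for all tested features of each kind. No 2 members carried consecutive identifier numbers.

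Within groups the members did not vary as 1 block. The deviations of each member from its group means were correlated between members over the 12 libraries, which share library size and preparation. The rule used the same libraries, so nothing is read from how the members' r differs from that of other features. The mean Pearson r over the 8778 pairs was 0.085, beside 0.017 over all pairs of the 26969 tested features at the same control level. It was 0.141 among the AJAP members, beside 0.010 over tested AJAP features at that level, and 0.060 among the MSTRG members, beside 0.042. Pairs with r over 0.8 made up 1.07% of the members' pairs and 0.65% of all pairs. AJAP14642 and AJAP23580 were such a pair (r = 0.944), chosen after the values were seen.

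Single libraries stood apart for the members, but the rule itself acted on the lowest of the 9 other values and the highest combined value. How often a library was lowest or highest was not counted over all features, so nothing is read from those counts. Thermal replicate 2 was the lowest of the 9 other libraries at 41 members, more than any other library, and its median deviation from the thermal mean was -0.28 over the members and -0.03 over tested features at the same level. Thermal replicate 1 was at 0.25 and 0.01. Under both stresses replicate 3 was the highest of the 3 at 73 members, with a median deviation of 0.28, and replicate 1 the lowest at 65. Their part in the low levels was not tested, but the set itself changed with the libraries used. Without replicates 1, 2 and 3 under both stresses the rule chose 246, 236 and 305 features, of which 110, 124 and 125 were among the 133. Without thermal replicate 2 it chose 199, with 128 of the 133 among them, and without control replicates 1, 2 and 3 it chose 143, 126 and 168, with 92, 90 and 106 of the 133 among them.

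The depth behind the low values was modest. Over the 3 combined libraries a member held a median of 81 reads, with a lower quartile of 29, and 18 members held under 10. In the 3 control libraries the median was 461 reads. The protocols name no molecular identifiers, so these counts bear on counting error only.

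In limma's test on log2(FPKM + 0.5) across all 46763 features, 63 of the 133 members were called lower under both stresses than in the control at an adjusted p of 0.05, where 0.986% of all features were called lower. The rule chose members on this contrast, so nothing is read from that share. The 63 were 46 of the 80 AJAP and 17 of the 53 MSTRG members. They included 26 of the 35 members with both single-stress means at least 0.5 lower. Of the 39 members with both means within 0.5 of control, 7 were called. When voom, limma's method for counts, was run on the recovered reads, 31 members were called, all among the 63, where 0.453% of all features were called lower. Leaving out control replicates 1, 2 and 3 gave 19, 23 and 17 members, where 136, 171 and 149 of all features were called lower. Leaving out replicates 1, 2 and 3 under both stresses gave 20, 6 and 40 members, where 169, 64 and 236 of all features were. With all 12 libraries limma called 461 of all features lower.

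Against the hypoxic group, 3 members were called lower under both stresses, AJAP13526, AJAP03297 and AJAP19892, where 0.0128% of all features were. At an unadjusted p under 0.05 limma had 123 members lower, beside 5.23% of all features. The rule put every combined library below every hypoxic and thermal library. Nothing is therefore read from the members' shares in this comparison or in that with the thermal group. Voom called 0 members and 0% of all features lower in this comparison, with 121 members at an unadjusted p under 0.05. Limma's count was 0 without hypoxic replicate 1, 2 or 3, where 0 of all features were called lower. Its count of members was 1 without control replicate 1 or 3, thermal replicate 1, or replicate 1 or 2 under both stresses. In those refits 1 to 3 of all features were called lower. Against the thermal group limma called 0 members and 0% of all features, with 121 members at an unadjusted p under 0.05 beside 5.32% of all features, and voom called 0 (115 unadjusted). Without thermal replicate 2 limma called 6 members and 28 of all features lower. For each stress alone against control, where the rule itself limited the change, limma called 0 members. Lower levels in the thermal group were called at 0.00642% of all features, and at an unadjusted p under 0.05 they were found at 18 members and 4.42% of all features. In the hypoxic group the called share was 0.143%, and the unadjusted counts were 13 members and 7.24% of all features.

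The departure from the sum, tested as the interaction in the same model, was called at 0 members and 0% of all features, and by voom at 0. At an unadjusted p under 0.05 it was below 0 at 44 members in limma and 41 in voom, beside 4.22% of all features in limma. The rule favours a departure below 0, so nothing is read from the members' share. A count of 0 calls is no evidence of additivity.

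The same conditions were applied to the other treatments for comparison. Features lowest in the 3 thermal libraries, with the hypoxic and combined means within 1 of control, numbered 10, and the same for the hypoxic libraries numbered 80, of which 59 were MSTRG features. Features highest under both stresses, at a combined mean of at least 2 FPKM, numbered 117, of which 62 were AJAP features. These counts were added after the values were seen, share the control libraries and were not tested against each other.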

How the data were processed

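Per the labels' protocols, rRNA was removed with a human, mouse and rat kit and libraries were directional. The submitters' processing notes name DESeq 1.16, Cufflinks, TopHat, TopHat2 2.0.12 and Bowtie2 2.2.3. The role of each tool, the genome build, the annotation and any use of strand in counting were not given in the sources used here, so antisense or near-identical features may share reads. The values are FPKM deposited by the authors, 1 column per library, replicates not pooled.

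Whole reads were recovered from the FPKM values: at a tolerance of 0.001 reads, 59494 of 59494 features gave whole reads at a shared length, the smallest that fits. The procedure and the limma fit were tested on simulated data.

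The 46763 features that reached 0.5 FPKM in 3 or more libraries were fitted as log2(FPKM + 0.5), which understates changes of low features, with limma 3.58.1 (R 4.3.3), 4 group means and a variance trend, with Benjamini-Hochberg adjustment over all and a threshold of 0.05. Python 3.11.15, numpy 2.4.6, pandas 2.3.3 and matplotlib 3.10.9 did the rest. Groups came from the treatment labels. Alternatives were other pseudocounts, filters, scalings and rule limits, a replicate block, robust variances, fits on only the groups compared, voom, and leaving out each library.

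The members, lists and tests were chosen with earlier results of these data known. Named members were the 6 with the highest control mean, the 6 lowest combined changes, the 6 widest gaps, the 4 lowest interactions, the 4 smallest p against the hypoxic group, 4 at 0 reads under both stresses, and those nearest each threshold; others are marked in the text.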

Additional observations from a re-analysis of the deposited data

Results flagged for a closer look

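At 3 members all libraries under a stress alone lay above all control libraries, and all combined libraries lay below those of the other stress. The rule fixes the second part at every member, so only the first adds to it. The share of all features with this pattern was not counted, so nothing is read from the number of members that showed it. MSTRG.122088 was higher in all hypoxic than in all control libraries (14.4 ± 2.77 against 7.40 ± 2.34 FPKM, SD, n = 3) and lower in all combined than in all thermal libraries (1.54 ± 1.21 against 9.09 ± 2.37 FPKM), an interaction of -3.38 on the log2 scale. MSTRG.8532 did the same at 11.1 ± 0.446 against 8.23 ± 1.97 FPKM and 1.97 ± 1.39 against 8.52 ± 3.74 FPKM, with an interaction of -2.45. MSTRG.42886 was higher in all thermal than in all control libraries (38.0 ± 6.16 against 30.9 ± 1.27 FPKM) and lower in all combined than in all hypoxic libraries (10.2 ± 4.66 against 22.5 ± 4.40 FPKM), with an interaction of -1.48. The rule chose all 3 for their low combined libraries, so their differences between settings were not tested independently. Over all features limma and voom called 0 interactions, with 3587 and 3374 at an unadjusted p under 0.05.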

How the results depend on the processing

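The rule chose 84 features with a control minimum of 5 FPKM, 279 with a combined change of at least 1, 59 with at least 2, and 39 with a limit of 0.5 on the single stresses. Leaving out 1 library gave 126 to 305. With pseudocounts of 0.1 and 1 it chose 165 and 116, and with median-of-ratios and quantile scaling 119 and 109; 75 of the 133 were chosen under all 4. Against the control, members called numbered 4 in a fit on only the groups compared, 31 with voom, and 6 to 65 without 1 library. Over all features 56, 212 and 64 to 509 were called lower in these fits, against 461 in the fit on all 12 libraries. The cause was not tested. Against the hypoxic group, members called numbered 1 with no filter, 1 with quantile scaling, 0 on only the groups compared, 0 with voom, and 0 to 4 without 1 library. In the same order 1, 1, 2, 0 and 0 to 17 of all features were called lower. Against the thermal group, members called numbered 0 to 6 without 1 library, beside 0 to 28 of all features called lower. The interaction called 0 members throughout. The labels do not say whether replicate numbers pair libraries. Deviations of same-numbered libraries correlated at -0.08 to 0.086, and those of differently numbered libraries at -0.056 to 0.079. In 3 of 12 libraries the mean correlation was highest with libraries of the same number. With 3 libraries per group, these values cannot settle whether libraries were paired. With a replicate block 42 members were called against control, 39 of them among the 63, 2 against the hypoxic group, and 0 in the others. Over all features 315 were called lower against control, 4 against the hypoxic group, 1 against the thermal group and 0 for the interaction. Named members kept their side of the threshold against control, called or not, in 321 of 390 refits, and their direction was fixed by the rule. These refits covered other pseudocounts, median-of-ratios scaling and leaving out 1 library. Voom, the replicate block, quantile scaling, other filters and fits on only the groups compared were not among them. At 81 median reads under both stresses, depth limits the lowest levels.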
